A study of Mus musculus with 3 samples.

Results

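Cytosolic ribosomal protein genes were followed across 3 single-cell libraries of mouse salivary gland organoids. Members were chosen by symbol alone, as all symbols that begin with Rpl or Rps and a number, with Rplp0, Rplp1, Rplp2 and Rpsa, and without pseudogene symbols holding -ps (5 left out) and the S6 kinases that begin with Rps6k (10 left out). The rule found 86 of the 32285 genes in the deposited lists. They comprised 31 small subunit genes, 43 large subunit genes, 3 stalk genes, 7 paralogs (Rpl22l1, Rps27l, Rpl3l, Rpl10l, Rpl39l, Rpl36al and Rps27rt) and 2 genes that share the naming but encode no canonical subunit (Rpl7l1 and Rps19bp1). All 86 had a position on GRCm38, spread over 19 chromosomes, 4 of them on X.

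The organoids came from submandibular glands of C57BL/6 mice aged 8 to 12 weeks, with cells of 4 animals pooled, and grew in Matrigel with EGF, FGF2, N2, insulin, dexamethasone, the ROCK inhibitor Y27632 and media conditioned by R-spondin1 and Wnt3a producing cells. The control group was not irradiated, the photon group received 7 Gy of photons and the proton group 7 Gy of protons from the beam's plateau, both on day 5, and every group was collected on day 11, 6 days after irradiation. Propidium iodide negative cells, meaning cells whose membrane excludes the dye, were sorted (45000 per group) and profiled by 10x Genomics 3' single-cell RNA sequencing. Each group was 1 library, no label assigns a cell to its animal, and a difference below is therefore a difference between libraries with no replicate check and no test. A pooled organoid culture lacks the blood supply, nerves and most stromal cells of the gland.

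The cytosolic ribosome is the machine that translates nuclear-encoded mRNA into protein. Its small subunit decodes the message, its large subunit joins amino acids, and the stalk of the large subunit, built from Rplp0, Rplp1 and Rplp2, recruits translation factors. Most ribosomal protein mRNAs start with a C followed by a run of pyrimidines, the 5' terminal oligopyrimidine (TOP) tract, through which growth signals that pass the mTOR kinase and the RNA-binding protein Larp1 set how many of these mRNAs are translated. In epithelia, ribosomal protein mRNA is a large share of all mRNA, and free ribosomal proteins such as Rpl5 and Rpl11 are known to bind Mdm2 and thereby stabilise p53.

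Kept cells had 500 or more detected genes and at most 20% mitochondrial UMIs (unique molecular identifiers, each standing for 1 captured mRNA molecule). The 3 libraries held 13219 to 15041 such cells and 36692939 to 46936995 UMIs, with a median of 2223 UMIs per cell in proton against 2757 in control and 2808 in photon. Pairs of libraries shared 55 to 61 cell barcodes, and no doublets were removed. Of the marker lists, those of basal duct, luminal duct, squamous and cycling cells were detected in full. The squamous marker Krt4 reached at most 0.557 CPM (UMIs scaled to a common library total). The 5 fibroblast markers summed to at most 0.767 CPM and 4 immune markers to at most 2.22, though each immune marker had UMIs in photon and proton. The 3 endothelial markers summed to at most 2.18 CPM and 2 erythroid markers to 0.

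Runs of C and T like those of TOP tracts could be looked up for part of the family. The sequences below show such a run near the annotated start of members at both ends of the range described later. RefSeq promoter windows on GRCm38.p6, 250 bases before to 50 bases after an annotated start, were found for 66 of the 86 members (78 windows). A run of at least 8 C or T bases led by C on the gene's strand began within 25 bases of the start in 34 of these windows (43.6%), and in 3875 of 24756 windows of the other deposited genes (15.7%). The first lines are of the paralog Rps27l and its parent Rps27, the next are of Rpl22l1, Rpl39 and Rpl38, whose CPM was higher in proton, and the last are of Rpl5 and Rps9, whose CPM was lower there. Capitals mark the C-led pyrimidine run.
Rps27l: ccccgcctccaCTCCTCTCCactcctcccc
Rps27: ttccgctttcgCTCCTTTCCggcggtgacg
Rpl22l1: gcaagcccgttCTCTTCCCacggctgcagc
Rpl39: gagtcatccatCCCCCCCTaagctccgcct
Rpl38: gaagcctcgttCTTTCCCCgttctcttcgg
Rpl5: gcctacagccaCTCTTTCTCacgtcgcttg
Rps9: aaccgccttgtCTCTCTTTgtctcgggcct
The windows lie at chr9:66946053-66946082 (Rps27l, plus strand), chr3:90213632-90213661 (Rps27, minus strand), chr3:28805500-28805529 (Rpl22l1, plus strand), chrX:37085224-37085253 (Rpl39, minus strand), chr11:114668569-114668598 (Rpl38, plus strand), chr5:107900497-107900526 (Rpl5, plus strand) and chr7:3704025-3704054 (Rps9, plus strand). Counted from the RefSeq start, the run begins at position -22 in Rps27l, -20 in Rpl39 and Rpl5, -5 in Rps9, -2 in Rps27, 0 in Rpl38 and 3 in Rpl22l1. The runs of Rps27l, Rpl39 and Rpl5 end before the RefSeq start, so by that start they lie outside the mRNA. RefSeq starts can differ from those of GENCODE, the annotation used for gene positions. The same windows were searched on both strands for CCGGAAG, a core bound by ETS factors, which was found in 27 of 78 member windows (34.6%) and in 10.6% of the others. A match is a description of the letters, not evidence of binding.

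Ribosomal protein genes held 16.4% of UMIs in control (exact 95% binomial interval 16.41 to 16.44), 18.5% in photon (18.52 to 18.55) and 20.3% in proton (20.27 to 20.30). The intervals cover counting error only. The ratio of shares was 1.13 for photon over control, 1.24 for proton over control and 1.09 for proton over photon, so the order of the libraries was control, photon, proton. Nothing in 1 library per group says how far cultures of 1 condition would differ.

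All parts of the ribosome shared this order, by unequal amounts. The small subunit, which decodes mRNA, held 7.44% of UMIs in control, 8.32% after photons and 8.90% after protons. Genes of the large subunit held 8.22%, 9.23% and 10.2% in the same order. The 3 stalk genes had the largest ratio among the canonical groups, with 0.587%, 0.731% and 0.940%, a ratio of 1.60 for proton over control. The paralogs held 0.157%, 0.239% and 0.242%, and so were 1.52 times higher in photon and 1.54 times higher in proton than in control. Mitochondrial ribosomal proteins, a separate machine encoded by 78 Mrp genes in the lists, had another order, with 0.559% in control, 0.698% after photons and 0.568% after protons.

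Single cells spread widely around these totals. The median cell gave 15.9% of its UMIs to ribosomal protein genes in control, 18.2% after photons and 19.4% after protons. The 5th and 95th percentiles were 1.5% and 23.8% in control, 2.97% and 25.9% in photon, and 2.57% and 32.3% in proton, so the libraries overlapped over most of their range. The SD over cells was 7.23, 6.29 and 8.53 percentage points. The lowest 5th percentile was that of control and the highest 95th percentile that of proton.

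A lower group of cells gave under 5% of UMIs to the family. They numbered 2695 in control (20.4%), 921 in photon (6.12%) and 1190 in proton (8.53%). The limit fell in a sparse range in control and photon and in a less sparse one in proton. Between 4% and 6% lay 210, 111 and 275 cells. The cells under 5% were shallow, with medians of 941, 896 and 1145 UMIs against 3087, 2922 and 2351 in the rest. Their median mitochondrial share was 9.42%, 7.59% and 3.57%, against 2.66%, 2.00% and 1.52%. Malat1, a nuclear noncoding RNA, stood at 95191, 94097 and 40606 CPM in them and at 32646, 21308 and 14027 CPM in the rest. The part of depth and RNA quality in the low share was not tested. Without these cells the family held 17.5% of UMIs in control, 18.9% after photons and 21.1% after protons, the same order over a narrower range. As the cells were set aside by this same share, it had to rise in each library, and the values are no separate check of the order.

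The order also held within each class of cell depth. Among cells under 1000 UMIs the share was 2.74% in control, 4.69% after photons and 11.2% after protons. From 1000 to under 2000 UMIs it was 9.95%, 15.4% and 17.9%. From 2000 to under 4000 UMIs the shares were 17.4%, 18.8% and 21.2%, and in cells of 8000 or more they were 17.5%, 19.3% and 20.2%. The libraries thus lay farthest apart in the shallowest cells, and closer together from 2000 UMIs upward.

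**Figure D1:**
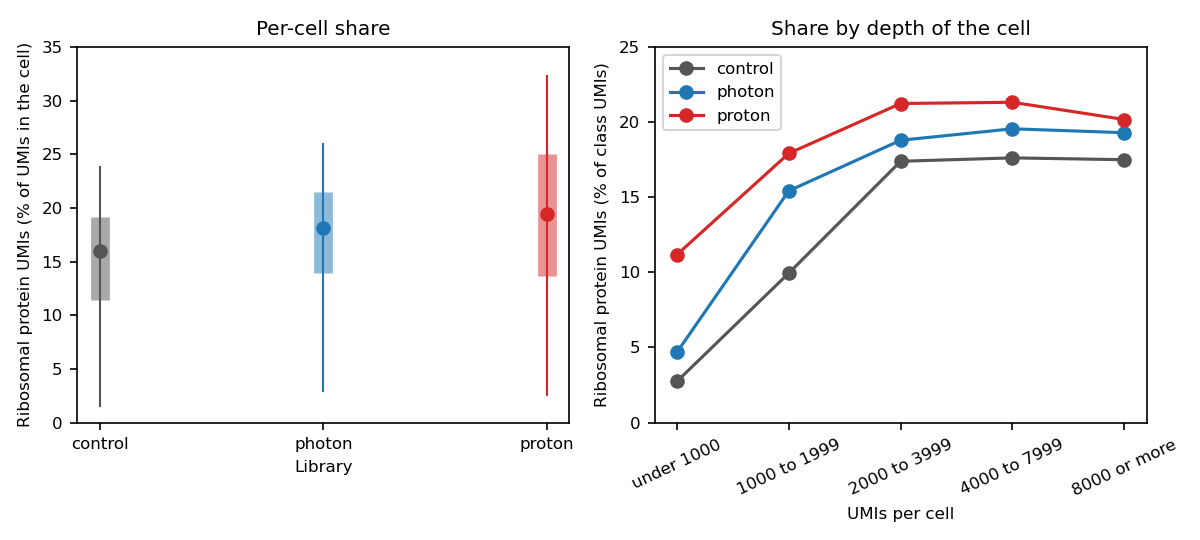
Left, share of UMIs from ribosomal protein genes per cell in each library, with a dot at the median, a thick bar from the 25th to the 75th percentile and a thin line from the 5th to the 95th. Right, the summed share in 5 classes of UMIs per cell, where the curves climb up to 2000 UMIs and then flatten, with proton above photon and photon above control in each class.

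Individual members were compared by CPM. In 3' counting each molecule counts once whatever its length. In control 58 members reached 1000 CPM, in photon 61 and in proton 64. A minimum mean of 25 CPM over the compared libraries left 81 of 86 members in each comparison. The 5 below it were Rpl10 and 4 paralogs. Rpl10, a large subunit gene needed late in subunit assembly, was at 12.9 CPM in control, 9.50 after photons and 13.1 after protons. Rpl10 has near-identical copies in the genome, and the way reads were split between copies was not given in the sources used here, so its level is uncertain.

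Between photon and control, 4 of the 81 members were at least 1.5-fold higher (5.75% of all genes with that CPM were) and 0 were at least 1.5-fold lower (8.19% of all genes). At 1.2-fold, 26 members were higher against a background of 17.7%, and 2 were lower against 35.3%. The median log2 ratio over members was 0.21 and that over all 5790 genes was -0.11. Of the 81 members, 72 had a ratio above 1 (39.0% of all genes did). Centred on other genes of like transcript length, an alternative added after seeing the data, 1 member was higher and 1 lower, and the median was 0.0030. These are sizes, without a test.

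Rps2, a small subunit protein at the mRNA entry site, had the highest photon ratio. Its CPM was 437 in control, 744 after photons and 1579 after protons, a photon-to-control ratio of 1.70 (interval 1.67 to 1.74). Rps27l, a paralog of Rps27 known as a p53 target, had 428, 720 and 793 CPM, a ratio of 1.68 (1.65 to 1.71) in photon. Rpl22l1, the paralog of Rpl22, had 446, 740 and 900 CPM, a ratio of 1.66 (1.63 to 1.69). In all 3 of these genes both irradiated libraries lay above control, and photon lay below proton.

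The next members by photon ratio encode small proteins. Rpl41, one of the smallest ribosomal proteins, was at 1477 CPM in control, 2290 after photons and 3660 after protons, a photon ratio of 1.55. Rps29 was at 277, 410 and 884 CPM, a ratio of 1.48, and Rpl38, known for its role in translating Hox mRNAs, at 600, 836 and 1252 CPM, a ratio of 1.39. All 3 lay above control in both irradiated libraries.

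At the low end, Rps27 was at 108 CPM in control, 74.0 after photons and 73.7 after protons, and its photon ratio was 0.685 (0.654 to 0.716). It was thus below control by the same amount in both irradiated libraries. Rps27 has a near-identical intronless copy, Rps27rt, at 14.4, 12.1 and 26.5 CPM, so the split of reads between them is uncertain. Rpl9, in the large subunit, had the second lowest photon ratio, 0.784. Rps7, a small subunit protein, was at 3938 CPM in control, 3542 after photons and 3402 after protons, a ratio of 0.899. Rps3a1, Rpl36a and Rpl5 followed at 0.923, 0.931 and 0.937, close enough to 1 that another scaling of the libraries turned the direction of Rpl5 (log2 ratio 0.0076).

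Between proton and control, a comparison that shares its control library with the one above, the members spread further. At least 1.5-fold higher were 26 of 81 (10.8% of all genes) and 4 were at least 1.5-fold lower (14.9% of all genes). At 1.2-fold, 41 members were higher against a background of 29.7% and 11 were lower against 31.3%. The median log2 ratio was 0.28 over members and 0.00 over all 5870 genes. Ratios were above 1 for 61 members (50.0% of all genes) and below 1 for 20.

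Rps2 was at the upper end with a proton-to-control ratio of 3.62 (3.55 to 3.68). Rps29, a zinc-binding small subunit protein, followed at 3.19 (3.12 to 3.26), and Rpl41 at 2.48. Rps28, another small subunit protein of few residues, was at 526 CPM in control, 672 after photons and 1229 after protons, a ratio of 2.33. Rpl39, at the exit of the peptide tunnel, was at 1431, 1698 and 3296 CPM, a ratio of 2.30. Rpl38 had 2.09. For Rps28 and Rpl39 the step from photon to proton was the larger of the 2 steps, with proton-to-photon ratios of 1.83 and 1.94.

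At the lower end, Rpl9 was at 381 CPM in control, 299 after photons and 161 after protons, a proton ratio of 0.424 (0.411 to 0.437). Rpl5, which carries 5S rRNA into the large subunit, was at 1248, 1170 and 700 CPM, a ratio of 0.561. Rps3a1 was at 4167, 3846 and 2497 CPM, a ratio of 0.599. These members had proton well below both other libraries. Rps9, a small subunit protein, was at 2828 CPM in control, 3193 after photons and 1781 after protons, a ratio of 0.630, so photon and proton lay on opposite sides of control. Rpl36a had 0.675 and Rps27 had 0.682.

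**Figure D2:**
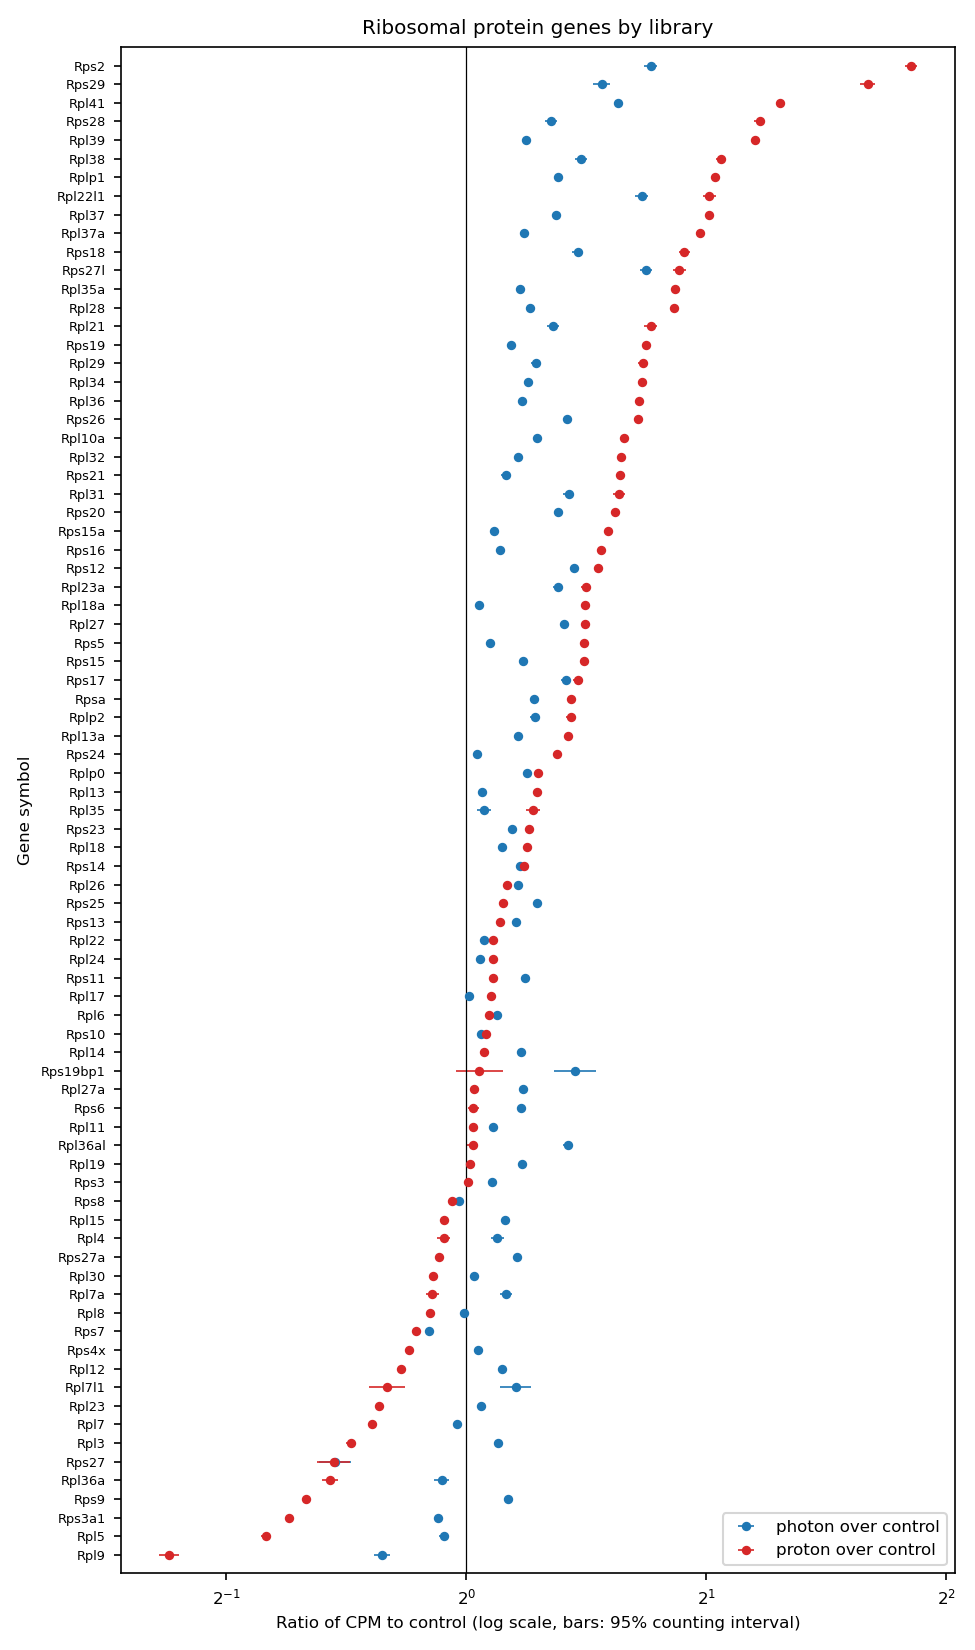
Ratio of CPM to control on a log scale for the 81 members with a mean of at least 25 CPM, photon in blue and proton in red, sorted by the proton ratio, with 95% counting intervals as bars. Proton points run from 0.424 (Rpl9) to 3.62 (Rps2), and photon points from 0.685 (Rps27) to 1.70 (Rps2), both against the same control library.

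Directly between the irradiated libraries, 10 members were at least 1.5-fold higher in proton than in photon (22.7% of all genes) and 5 were lower (16.3% of all genes). At 1.2-fold the counts were 27 higher against 40.3% and 15 lower against 31.7%. Ratios were above 1 for 48 members (53.9% of all genes). The median log2 ratio was 0.09 over members and 0.08 over all 5814 genes. Centred on other genes of like transcript length, 22 members were higher and 0 lower, and the median was 0.32. When libraries were scaled by the median of gene ratios in place of total UMIs, 6 members were higher and 6 lower. Rps29 led with a proton-to-photon ratio of 2.16, before Rps2 with 2.12, Rpl39 with 1.94, Rps28 with 1.83, Rpl37a with 1.66 and Rpl41 with 1.60. Rpl37a, a large subunit protein with a zinc finger, was at 1046, 1236 and 2054 CPM in the 3 libraries in the order control, photon, proton. The lowest were Rpl9 with 0.541, Rps9 with 0.558, Rpl5 with 0.599, Rps3a1 with 0.649, Rpl3 with 0.654 and Rpl7l1 with 0.689. Rpl3, a large subunit protein near the peptidyl transferase centre, was at 1517 CPM in control, 1661 after photons and 1087 after protons.

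Departure from the rest of the family was counted against the median of the canonical subunits, as a difference of at least 1.5-fold with a counting interval that leaves out that median. In photon over control 1 member lay below, Rps27 (24.0% of all genes lay that far below), and 0 lay above (3.11% of all genes). In proton over control 12 lay above, against 4.55% of all genes, and 10 below, against 29.1%. Above were, from the farthest, Rps2, Rps29, Rpl41, Rps28, Rpl39, Rpl38, Rplp1, Rpl22l1, Rpl37, Rpl37a, Rps18 and Rps27l. Below were Rpl9, Rpl5, Rps3a1, Rps9, Rpl36a, Rps27, Rpl3, Rpl7, Rpl23 and Rpl7l1. In proton over photon 6 lay above (17.1% of all genes) and 6 below (20.2%), the same 12 that end the list in that comparison.

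Within the stalk, Rplp1 differed from its partners. Rplp1, an acidic protein of the stalk dimers, was at 2524 CPM in control, 3293 after photons and 5177 after protons, a proton ratio of 2.05. Rplp2, its dimer partner, was at 839, 1023 and 1135 CPM, a ratio of 1.35. Rplp0, the base to which the dimers bind, was at 2508, 2992 and 3088 CPM, a ratio of 1.23. All 3 were above control in both irradiated libraries, and Rplp1 gave most of the difference in the stalk share. Rpsa, a small subunit protein also known as the laminin receptor precursor, was at 2496, 3036 and 3380 CPM, a ratio of 1.35.

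The paralogs fell into a detected and a barely detected set. Rpl22, the parent of Rpl22l1, was at 1519 CPM in control, 1597 after photons and 1641 after protons, a proton ratio of 1.08, while Rpl22l1 had 2.02. Rps27l likewise had a proton ratio of 1.85 beside 0.682 for Rps27, whose split of reads with Rps27rt is uncertain. Rpl36al, an intron-poor copy related to Rpl36a, was at 685, 918 and 697 CPM, highest in photon, whereas Rpl36a was at 435, 405 and 294. In each of these pairs the paralog had the higher ratio to control in both irradiated libraries. The 3 paralogs known from muscle or testis were almost absent, with 8, 2 and 1 UMIs for Rpl3l, 1, 1 and 2 for Rpl10l and 2, 4 and 4 for Rpl39l in control, photon and proton.

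Rpl22l1 and Rps27l were also detected in more cells of the irradiated libraries. After each cell was thinned to 2000 UMIs, at the cost of 3599, 4150 and 6017 shallower cells of control, photon and proton, 55.9% of control, 70.8% of photon and 74.4% of proton cells held a UMI of Rpl22l1. Before thinning the shares were 57.1%, 70.8% and 67.2%. For Rps27l they were 56.7%, 73.5% and 75.5% after thinning and 58.4%, 76.1% and 71.0% before. The 2 genes with a shared name but no place in the ribosome had another order. Rpl7l1 was at 85.1, 98.2 and 67.7 CPM, and Rps19bp1, a nucleolar protein that binds Rps19, at 44.1, 60.4 and 45.8 CPM, both highest in photon.

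Shorter members tended to have the higher proton ratio. Canonical subunit transcripts, 1 protein-coding transcript per gene from GENCODE M21, ran from 271 to 3706 bases with a median of 729. Over 76 canonical subunits the Spearman correlation of the log2 proton-to-control ratio with coding length was -0.55, and that of the photon-to-control ratio -0.37. With transcript length in place of coding length the values were -0.41 and -0.34. Genes share the libraries and are no independent replicates, so the values are descriptions. Without Rps2, a long-coding gene with a high ratio, those for coding length were -0.61 and -0.42.

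The 28 subunit transcripts under 600 bases held 4.29% of UMIs in control, 5.11% after photons and 6.22% after protons. The 17 of at least 1000 bases held 4.37%, 4.85% and 4.99%. The short ones thus held less than the long ones in control and more in both irradiated libraries. The long class goes by transcript and includes Rps20, with 3706 transcript bases but 357 coding bases. In proton over control the median log2 ratio was 0.59 for the short subunits and 0.22 for the 117 other protein-coding genes of that length. From 600 to under 1000 bases it was 0.11 against -0.16 for 425 others, and from 1000 to under 1500 bases 0.08 against -0.35 for 571 others. Other genes of 2500 bases or more had 0.11, so length and ratio had no single direction over the whole transcriptome.

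In photon over control the subunits did not stand apart from genes of like length. The medians were 0.25 for 28 short subunits and 0.29 for 118 other genes, 0.17 and 0.20 from 600 to under 1000 bases, and 0.14 and 0.12 from there to under 1500 bases. The offset of the family from the median of all genes in photon came with an offset of short transcripts in general, whose part in it was not tested.

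**Figure D3:**
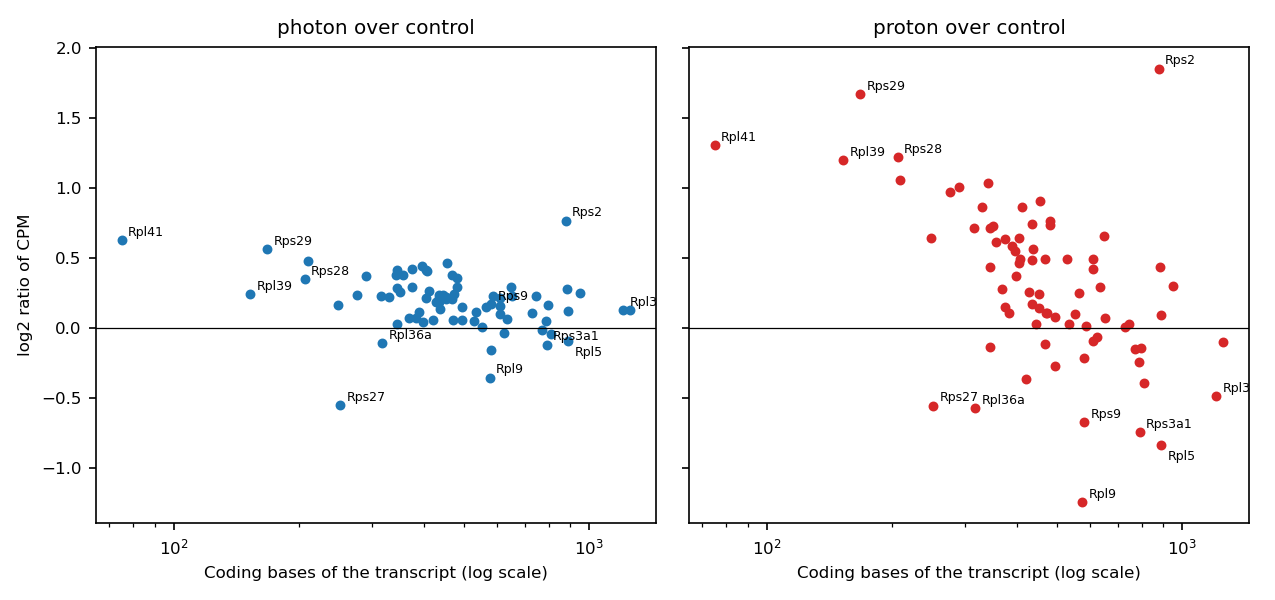
The log2 ratio of CPM to control against coding bases (log scale) for the canonical subunits, photon on the left and proton on the right, 1 point per gene. Proton ratios fall from left to right (Spearman -0.55 over 76 genes), with Rps2 highest and Rpl9 lowest.

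Rps2, Rpl9 and Rpl5 were also read by depth of the cells. In classes that start at 2000, 4000 and 8000 UMIs per cell, the proton-to-control ratio of Rps2 was 3.71, 3.54 and 3.35. For Rpl9 it was 0.416, 0.430 and 0.399, and for Rpl5 0.562, 0.554 and 0.487. These 3 genes kept their side of 1 in each of these classes. From 1000 to under 2000 UMIs the values were 5.14 for Rps2, 0.574 for Rpl9 and 0.854 for Rpl5. In cells under 1000 UMIs, where the median log2 ratio of the subunits was 1.95, they were 9.33 for Rps2, 1.06 for Rpl9 and 1.55 for Rpl5, so Rpl9 and Rpl5 lay above 1 there. The part of depth in these ratios was not tested. Several members overlap another gene on the opposite strand, among them Rps2 (Snhg9, 435 bases), Rpl5 (Dipk1a, 953 bases), Rps28 (Kank3, 3892 bases) and Rpl3 (Syngr1, 535 bases), and the use of strand in counting was not given in the sources used here. In all, 23 of 86 members overlap another deposited gene on either strand. Ribosomal protein genes have many near-identical processed copies, so the values of single members may include or lack reads of such copies.

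Members with and without a pyrimidine run of at least 8 bases near a RefSeq start differed little against their spread. Such a run was found in 33 of 66 members, though most ribosomal protein mRNAs start with a TOP tract. A member without a run here can still carry a shorter tract or one at another start. The contrast is therefore not one of mRNAs with and without a TOP tract. The median log2 proton-to-control ratio was 0.34 for 32 measured members with a run and 0.14 for 29 without, while the quartiles over all members were 0.01 and 0.66. With CCGGAAG in the window it was 0.44 for 25 members, and without it 0.20 for 36. In photon over control the medians were 0.23 with and 0.19 without a run.

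Genes that work with the ribosome were read beside the family. Fau, which encodes the small subunit protein Rps30 fused to a ubiquitin-like domain, was at 4277 CPM in control, 4417 after photons and 5679 after protons. It is a ribosomal protein gene that the symbol rule does not reach. Rack1, a scaffold on the small subunit, was at 1308, 1361 and 1562 CPM.

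Of 20 other TOP mRNAs and translation factors, 0 passed the 1.5-fold mark in either direction in photon over control (5.75% of all genes were higher and 8.19% lower), and the median log2 ratio was 0.02. For proton over control the counts were 0 higher (10.8% of all genes) and 7 lower (14.9%). The median was -0.36, on the other side of 0 from the ribosomal protein genes. Most of these transcripts are of 1000 bases or more. Other protein-coding genes of 1000 to under 1500 bases had a proton median of -0.35. Those of 1500 to under 2500 bases had -0.21, and those of 2500 or more 0.11. The part of length in the difference from the ribosomal protein genes was not tested. Eef1a1, which delivers tRNAs, was at 3747, 3644 and 2422 CPM. Eef2, which moves the ribosome along, was at 732, 645 and 788 CPM, and Pabpc1, the poly(A)-binding protein, at 747, 730 and 957. Tpt1, a growth-linked TOP mRNA, was at 5486, 4658 and 4446 CPM. Npm1, a nucleolar chaperone, was highest in photon at 1616 CPM, with 1187 in control and 611 in proton.

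Ribosome assembly genes and the lists after them were counted against the same shares of all genes. Of 16 listed, 10 were measured, and 1 was higher and 0 lower in photon over control, with a median log2 ratio of 0.38. For proton over control the counts were 0 higher and 1 lower, and the median was -0.23. Fbl, which methylates rRNA, was at 60.2, 94.2 and 41.9 CPM. Of 8 measured genes of growth control of translation, 0 were higher and 1 lower in photon (median -0.30), and 1 was higher and 2 lower in proton (median -0.17). Myc, a driver of ribosome production, was at 108 CPM in control, 67.7 after photons and 60.3 after protons. Of the mitochondrial ribosomal proteins, 5 of 70 were higher, a share near the 5.75% of all genes, and 0 lower in photon (median 0.28), and 3 of 69 were higher and 6 lower in proton (median -0.08). By their medians, assembly genes and mitochondrial ribosomal proteins were thus above control in photon and below it in proton. Cytosolic ribosomal protein genes were above control in both. The summed share of mitochondrial ribosomal proteins in proton was 1.01 times that of control. Other protein-coding genes of 600 to under 1000 bases had medians of 0.20 in photon and -0.16 in proton. Those of 1000 to under 1500 bases had 0.12 and -0.35, and those of 2500 or more -0.26 and 0.11. The part of transcript length in the medians of these lists was not tested.

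The family was then read in cells gated on single markers. Krt14 is a keratin of basal duct cells, Cldn4 a tight junction protein of luminal duct cells, Krt13 a keratin of squamous and suprabasal cells, Top2a a topoisomerase of dividing cells and Vim an intermediate filament of mesenchymal and migrating cells. After thinning to 2000 UMIs, cells with at least 2 UMIs of Cldn4, Krt13, Top2a or Vim were set against cells with 0 of it, and cells with at least 5 UMIs of Krt14 against cells with at most 1, these being its upper and lower quartiles over all libraries. A gate is a range of 1 gene and not a cell type. Shares leave the gate gene out of the total.

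The gates carried related markers. Of 5 other cycling markers, 5 were at least 1.5-fold higher in Top2a-gated cells of each library. Of 5 other luminal markers, 3 were so in Cldn4-gated cells of each library, and of 4 other basal markers 2 or 3 in Krt14-gated cells. Vim-gated cells had no more than 1 fibroblast marker of 5 higher, and 5 or 6 cycling markers of 6 were higher in them. Of 4 other squamous markers, 3 or 4 were higher in Krt13-gated cells. Squamous markers were also higher in Krt14-gated cells (1, 3 and 4 of 5 in control, photon and proton, with 2, 1 and 1 lower). In Cldn4-gated cells 3, 3 and 1 of 5 squamous markers were higher and 0, 1 and 1 lower. Of 5 basal markers, 2, 3 and 3 were higher in Krt13-gated cells and 2, 1 and 1 lower. The gates thus did not separate basal, luminal and squamous cells. All 6 cycling markers were also at least 1.5-fold higher in Krt14-gated cells and lower in Cldn4-gated cells of each library, and their part in the shares below was not tested. Gates overlapped, as 25.8% of Top2a-gated control cells, 56.9% of photon cells and 20.1% of proton cells were also Krt14-gated. In the same order, 22.8%, 59.3% and 33.6% of Krt13-gated cells and 40.0%, 53.0% and 10.9% of Vim-gated cells were. The part of this uneven overlap in the shares and in the comparison of libraries within gates was not tested.

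Krt14-gated cells had the higher ribosomal protein share in each library. It was 19.3% against 15.8% in reference cells of control, 21.5% against 15.7% in photon and 26.4% against 19.1% in proton. Of 81 members, 79 had a ratio above 1 in control (35.8% of all genes did), 80 in photon (34.5%) and 80 in proton (32.6%). The gate held 26.6% of thinned cells in control, 38.1% after photons and 8.68% after protons, so the library with the highest share had the fewest Krt14-gated cells. Its reference held 3401 of 9620 thinned cells in control, 3456 of 10891 in photon and 4746 of 7939 in proton. Most proton cells were thus reference cells. Rps27l went against the family here and lay at least 1.2-fold below the median of the members in each library, at 0.917 of its reference CPM in control, 0.835 after photons and 0.901 after protons. Rpl22l1, by contrast, had ratios of 1.47, 1.76 and 1.65, at or near the top of the family.

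Cldn4-gated cells had the lower share. It was 16.4% against 17.8% in control, 15.0% against 19.8% in photon and 16.5% against 22.0% in proton. Ratios were below 1 for 77 of 81 members in control (52.8% of all genes), 80 in photon (43.2%) and 79 in proton (39.9%). Rps27l was again on the other side, with ratios of 1.08, 1.14 and 1.13. Rpl22l1 was at 0.795, 0.598 and 0.597 of its reference. The 2 paralogs thus differed in opposite directions between Krt14-gated and Cldn4-gated cells and their references, though both were higher in irradiated libraries as a whole.

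Krt13-gated cells, 114 in control, 204 after photons and 110 after protons, held 20.8% against 17.4%, 20.4% against 19.1% and 26.5% against 21.0%. Ratios above 1 were found for 79 members in control (32.0% of all genes), 71 in photon (30.0%) and 80 in proton (32.4%). Rps27 had ratios of 0.590, 0.882 and 1.02 that rest on 43, 63 and 35 UMIs in the gated cells. The intervals in photon (0.676 to 1.13) and proton (0.705 to 1.42) include the median of the members there, a log2 ratio of 0.09 and 0.35. Rps27l was lower than Rps27 in these libraries, at 0.766 and 0.848.

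Top2a-gated cells numbered 31 in control, 232 after photons and 184 after protons. Their share was 17.9% against 17.5% in control, 21.1% against 18.9% in photon and 24.9% against 20.9% in proton, with 53 members above 1 in control (42.2% of all genes), 76 in photon (37.7%) and 80 in proton (37.3%). Gated cells were deeper, with a median of 6158 UMIs against 3200 in control and 3861 against 3074 in proton. Among cells of 2000 to 4000 UMIs, a range chosen after seeing the data, only 3 control cells were left and their share was 7.62% against 17.4%, while the ratio was 1.14 after photons and 1.18 after protons. The control value in dividing cells therefore rests on few, deep cells.

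Vim-gated cells numbered 20 in control, 251 after photons and 101 after protons, and held 18.9% against 17.5%, 21.1% against 19.0% and 25.1% against 21.0%. Members above 1 were 64 in control (45.1% of all genes), 78 in photon (42.1%) and 79 in proton (39.5%). Gated control cells were deeper, with a median of 5040.5 UMIs against 3201. Among cells of 2000 to 4000 UMIs the direction turned in control, where 7 cells held 16.3% against 17.4%, while the ratio was 1.13 after photons and 1.19 after protons. Rpl22l1 had ratios of 2.04, 1.42 and 1.46, at least 1.2-fold above the median of the members in each library. The first of these rests on 106 UMIs in 20 cells. Rps2 had 1.45, 1.28 and 1.37, also above that median.

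**Figure D4:**
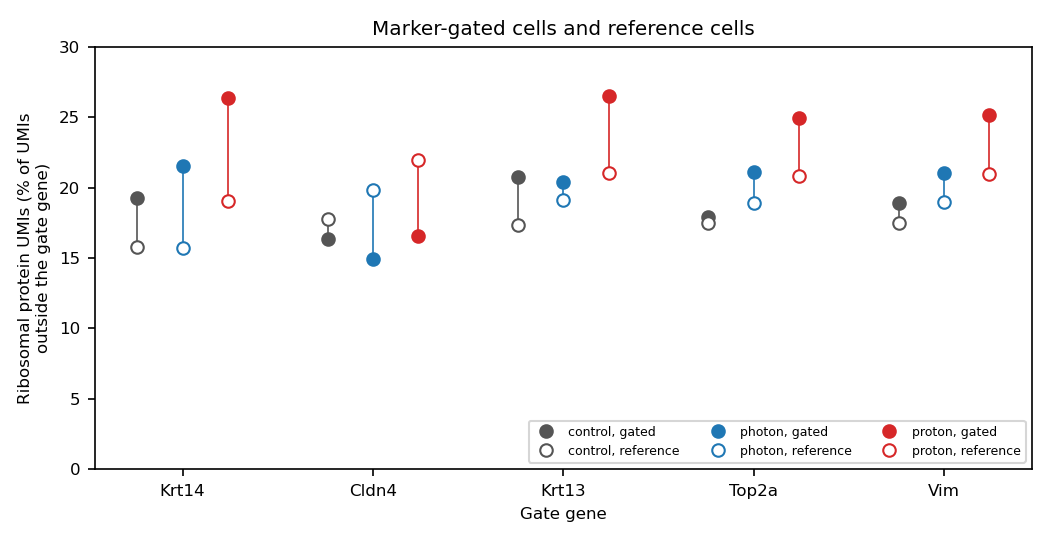
Share of UMIs from ribosomal protein genes in cells gated on 5 markers (filled) and in reference cells of the same library (open), without the gate gene in the total. Filled points lie above open ones in every library for Krt14, Krt13, Top2a and Vim, and below them for Cldn4.

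The libraries were also set side by side within each gate. The ratio of shares for proton over control was 1.37 in Krt14-gated cells, 1.28 in Krt13-gated, 1.39 in Top2a-gated, 1.33 in Vim-gated and 1.01 in Cldn4-gated cells. For photon over control it was 1.12, 0.982, 1.18, 1.11 and 0.913 for Krt14, Krt13, Top2a, Vim and Cldn4, so photon lay below control in Krt13-gated and Cldn4-gated cells. In Cldn4-gated cells the median log2 ratio of the subunits was -0.01 for proton, where that of all genes was 0.07, and in Krt14-gated cells it was 0.46, where that of all genes was -0.10.

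Members at the ends of the range were read in the gates as well. The proton-to-control ratio of Rps2 ran from 2.86 in Cldn4-gated to 4.41 in Krt14-gated cells, and that of Rps29 from 2.86 to 3.58. Rpl9 ran from 0.315 in Cldn4-gated to 0.551 in Krt13-gated cells. Rpl22l1 ran from 1.46 in Vim-gated to 2.49 in Krt13-gated cells, and Rps27l from 1.28 in Top2a-gated to 1.88 in Cldn4-gated cells. In each of the 5 gates Rps2, Rps29, Rpl22l1 and Rps27l were above control and Rpl9 was below it. Rps27, among the lowest members as a whole, turned to 1.09 (0.676 to 1.74) in Krt13-gated and 1.24 (0.676 to 2.46) in Top2a-gated cells, with intervals that include 1.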

How the data were processed

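The authors deposited, for each of the 3 libraries, raw UMI counts per gene and cell barcode, made with Cell Ranger 7.0.1 on mm10 per the submitters' processing notes (7.0.0 per the file headers). The annotation release, the barcode filter, the use of strand and the counting of intron reads were not given in the sources used here. Members, gene lists and markers were chosen with earlier results of these data known.

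Cells were kept with at least 500 genes and at most 20% mitochondrial UMIs. No doublet caller was run and no cells were clustered. UMIs were summed per library, and CPM ratios carry exact 95% conditional binomial intervals, shares exact binomial (Clopper-Pearson) ones. A gene counted as higher or lower at a fold of 1.5, by size alone, with a mean of at least 25 CPM; a count of 0 was set to 3 UMIs. Named were the 6 highest and 6 lowest members of each comparison, and a list of paralogs, stalk and pathway genes. Other departing or overlapping members, Fbl and Myc were named after their values were seen. A gene of the translation list enters its counts and median, and its own values are not reported here. Transcript lengths and positions came from GENCODE M21 (32235 of 32285 IDs matched), promoter windows from RefSeq. The interval code was tested on simulated data. Python 3.11.15, numpy 2.4.6, scipy 1.17.1 and pandas 2.3.3 were used.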

Additional observations from a re-analysis of the deposited data

Results flagged for a closer look

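Barcodes left out by the cell filter, which enter no comparison above, still held ribosomal protein UMIs. Their share was 3.80% in control (1047 barcodes), 11.1% in photon (885) and 26.0% in proton (569), and their median depth was 617, 595 and 618 UMIs. The order was that of the kept cells over a far wider range. The share lay below that of kept cells in control and photon and above it in proton. Barcodes left out for few genes and for a high mitochondrial share were not split, so the order is no check of that in kept cells. Rpl36al, the intron-poor relative of Rpl36a, was flagged for its proton-to-control ratio of 1.22 in Krt14-gated and 0.802 in Cldn4-gated cells. These values lie on opposite sides of 1. Rpl36al was not alone in this, as Rpl22 had 1.21 and 0.874. The median log2 ratio of the subunits also fell, from 0.46 in Krt14-gated to -0.01 in Cldn4-gated cells. The difference between the gates was not tested, and each value compares 1 library with 1 library.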

How the results depend on the processing

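With 1 library per group no spread between cultures was measured, and no alternative replaces it. No paired analysis was possible because each group holds 1 library and no result comes from a test. The share of UMIs kept the order control, photon, proton in each alternative. It was 16.2%, 18.4% and 20.4% with no filter on barcodes, 17.4%, 18.8% and 20.5% with at least 1000 genes, 17.5%, 19.1% and 21.3% in cells of 2000 to 8000 UMIs, 16.3%, 18.4% and 20.2% without the deepest 5% of cells, 17.0%, 19.0% and 20.7% outside mitochondrial UMIs, 14.3%, 17.4% and 19.1% as a mean over cells, and 16.3%, 18.3% and 20.0% over canonical subunits. The median log2 ratio of photon over control was 0.16 with at least 1000 genes, 0.17 in cells of 2000 to 8000 UMIs, 0.20 outside mitochondrial UMIs and 0.32 with scaling by the median of gene ratios, which raises each log2 ratio of this comparison by 0.10. That of proton over control was 0.22 with at least 1000 genes and 0.31 with the scaling. That of proton over photon was 0.11 in cells of 2000 to 8000 UMIs and 0.012 with the scaling, which left 6 members higher. In photon over control, 1 member was 1.5-fold lower with at least 1000 genes, in cells of 2000 to 8000 UMIs and with no CPM minimum, and 2 members departed with a minimum of 5 CPM and 3 with none.

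Centring each gene on the other genes of its transcript length class was added after seeing the data. It gave medians of 0.00 for photon over control (0.0030), 0.38 for proton over control and 0.32 for proton over photon. The counts became 1 higher and 1 lower with 2 departing in photon over control, and 22 higher and 0 lower in proton over photon. Rplp2 in photon over control then had -0.0052 and Rpl7l1 in proton over control 0.018, both with the sign turned. They were not the only members to turn. With a median of 0.0030, members in photon over control lay on both sides of 0 in similar numbers, where 72 of 81 had a ratio above 1 before. Rpl22, with a log2 ratio of 0.073 there, lay below the median of 0.29 for other genes under 600 bases. In marker-gated cells the mean log2 ratio over libraries was -0.51 for Cldn4 at 4 UMIs or more, and -0.25 for Top2a in cells of 2000 to 4000 UMIs, an alternative also added later, where 3 control cells were left. The Vim gate at 4 UMIs could not be computed, with 0 control cells. Over all alternatives of the shares, medians, counts and gates, 111 values stayed the same, 44 moved and 1 turned sign. Over the other values checked, which do not cover every member in every alternative, 344 stayed the same, 248 moved and 2 were counted as turned.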
